A study of Bos taurus with 2 samples.

Results

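Antioxidant and glutathione genes were described in total RNA of spermatozoa from bulls of high and of low fertility. The set held every gene name on the array that began with PRDX, GPX, GSTA, GSTM, GSTO, GSTP, GSTT or TXN, or with SOD and a digit, together with CAT, GSR, GCLC, GCLM, GSS, KEAP1, NFE2L2, NQO1, HMOX1, HMOX2 and SRXN1. This gave 57 of the 32429 gene names, read by 126 of the 51280 probes other than controls. The rule used names alone and no measured value.

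Of the samples, 1 was spermatozoal RNA of high-fertile HF crossbred breeding bulls and 1 was the same material of low-fertile bulls. Each was hybridised to 1 bovine 60-base oligonucleotide array in a single colour, Cy3, after priming with oligo-dT. How many bulls contributed to an array is not stated, though the titles speak of more than one, and neither ages nor fertility scores were used here. With 1 array per group no difference has a replicate check, no test was possible, and every value below describes these 2 arrays. In such bulk RNA, fewer cells of a type and less RNA per cell cannot be told apart.

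Spermatozoa produce superoxide and hydrogen peroxide in their mitochondria and have membranes rich in unsaturated lipids, which peroxides attack. Superoxide dismutases turn superoxide into hydrogen peroxide, and catalase, peroxiredoxins and glutathione peroxidases remove peroxides. Thioredoxin and glutathione supply the electrons and are in turn reduced by thioredoxin reductases and glutathione reductase, while glutathione transferases couple glutathione to reactive compounds. Mature sperm transcribe little, so their RNA is largely a remnant of spermatogenesis.

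Some probe sequences carry the readings below, since a value on these arrays belongs to 60 bases of a transcript and not to the whole gene. They are given 5′ to 3′ in the strand of the probe, with positions on build HGSC Btau_3.1 from the scanner tables, and each was chosen from probes with an open reading frame. The first pair reads the same place in GPX1, a cytosolic glutathione peroxidase, on opposite strands at chr22:51685240-51685299, and the capitals mark the same 12 bases in both. The second pair reads thioredoxin reductases, TXNRD1 on the plus strand at chr5:72976943-72980957 and TXNRD3 on the minus strand at chr3:127391280-127395043, and the capitals mark 24 bases that encode the same 8 amino acids. The remaining lines show the alpha-class glutathione transferase probes on the minus strand at chr23:25657179-25657238 and chr23:25714826-25714885, and the GPX4 probe that crosses an exon junction on the plus strand at chr7:42614859-42614990.
GPX1 sense: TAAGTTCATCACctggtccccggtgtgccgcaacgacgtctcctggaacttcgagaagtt
GPX1 opposite strand: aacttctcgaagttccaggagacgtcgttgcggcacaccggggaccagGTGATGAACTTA
TXNRD1: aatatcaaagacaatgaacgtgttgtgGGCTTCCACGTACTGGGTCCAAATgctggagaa
TXNRD3: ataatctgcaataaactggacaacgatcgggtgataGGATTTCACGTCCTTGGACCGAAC
GSTA3, accession of GSTA1: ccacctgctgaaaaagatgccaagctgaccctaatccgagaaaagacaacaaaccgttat
GSTA3: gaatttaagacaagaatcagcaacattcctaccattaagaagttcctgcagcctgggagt
GPX4: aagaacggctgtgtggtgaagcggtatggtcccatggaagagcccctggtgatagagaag

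Signals are the processed intensities of the scanner software, in linear units. Before any difference was taken, the log2 signal of each array was centred on its 75th percentile over probes well above background on both arrays, which was 148.6 on the high-fertile array, against 186.3 on the low-fertile array. A log2 difference is the scaled high-fertile minus the scaled low-fertile value, so a gene with a slightly lower signal on the high-fertile array can still have a difference above 0. The lowest signal called well above background was 22.6 on the high-fertile array, against 30.3 on the low-fertile array, and no spot was saturated. Levels of different probes are not set against each other.

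Of the 57 genes, 27 were measured, meaning that at least 1 probe was well above background on both arrays, and 25 were well above background on neither array. GPX7, PRDX3 and SOD1 were seen on the high-fertile array alone, and GSTA4 and GSTO2 on the low-fertile array alone. Over all 32429 gene names, 1402 were seen on the high-fertile array alone and 1392 on the low-fertile array alone. The measured share of the set was 47.4%, against 36.0% of all gene names. Among probes the share was 34.1% of the set and 27.6% of all probes. Of the 43 measured probes of the set, 19 (44.2%) had less than 2 times the lowest well-above-background signal on an array, against 36.7% of all measured probes.

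No measured antioxidant gene differed 2-fold between the high-fertile and the low-fertile array under the percentile scaling. None of the 27 was at least 2-fold higher, against 1.87% of the 11687 measured genes, and none was at least 2-fold lower, against 2.44% of these genes, or 4.30% either way. Differences ran from -0.92 for PRDX6 to 0.71 for KEAP1 with a median of -0.05, beside a median of 0.00 over all measured genes, whose middle 95% ran from -0.99 to 0.90. With 11 genes above 0 and 16 below, the split moved with the scaling: 1 was above and 26 below 0 when the arrays were scaled on 7 spike-in probes, and 17 were above and 10 below when the percentile was taken over all probes. Spike-in scaling also put 6 of the 27 at least 2-fold lower, GPX3, GSTA3, HMOX1, PRDX2, PRDX6 and TXNDC12, beside 15.4% of all measured genes. The SD between probes of 1 gene was 0.42 over 1774 genes, and 9 of the 27 differences (33.3%) exceeded it, against 27.9% of all measured genes.

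**Figure D1:**
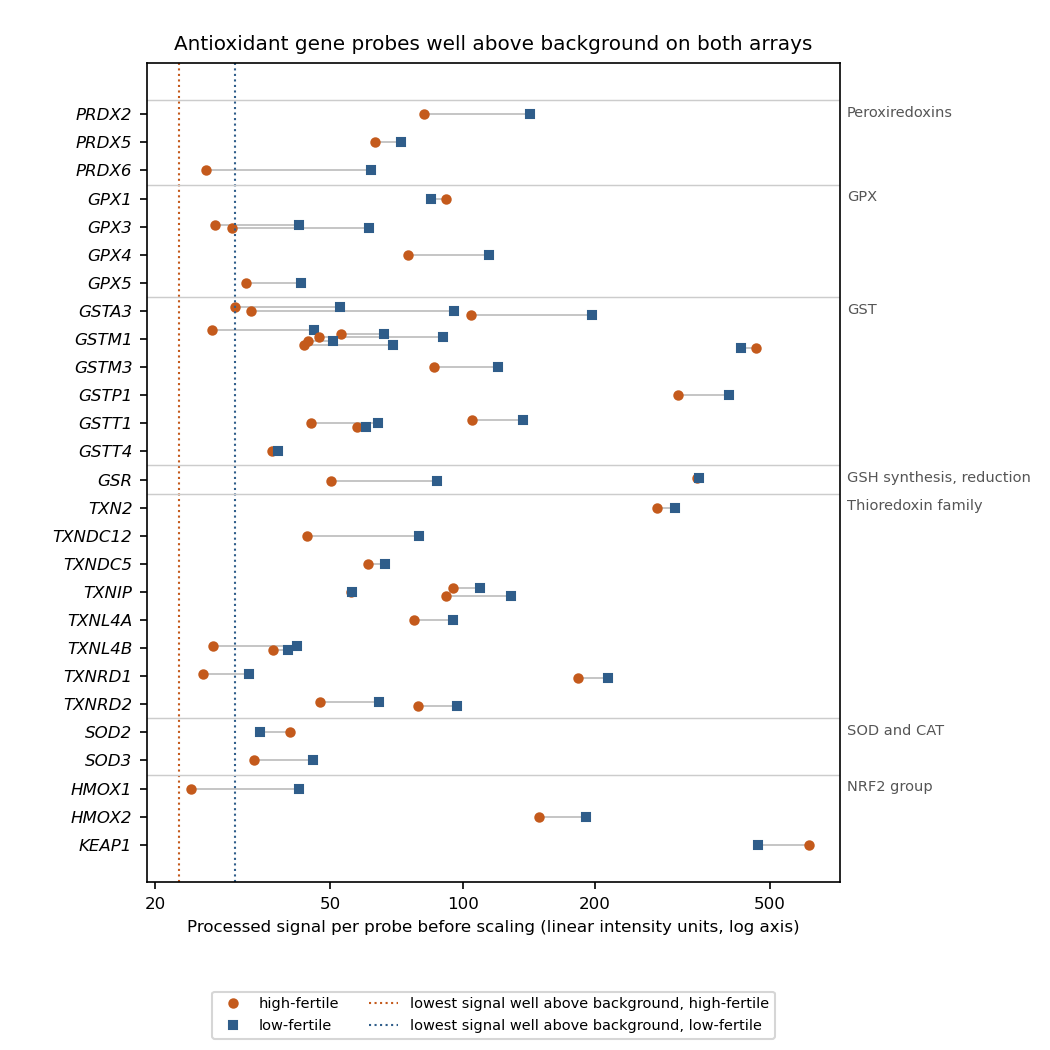
Processed signal (x axis, linear intensity units on a log axis) of each probe well above background on both arrays, by gene and role, with the high-fertile array as circles and the low-fertile array as squares joined by a line. Dotted lines mark the lowest well-above-background signal, 22.6 on the high-fertile array, against 30.3 on the low-fertile array, and the KEAP1 probe at the bottom stands at 612 on the high-fertile array, against 469 on the low-fertile array.

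Peroxiredoxins reduce hydrogen peroxide with electrons from thioredoxin, and PRDX6, which uses glutathione, also acts on phospholipids. PRDX6 had a signal of 26.1 on the high-fertile array and 62.0 on the low-fertile array at 1 of its 5 probes, a log2 difference of -0.92. The high-fertile value lay close to the limit of that array. Elsewhere in the transcript the readings conflicted: the probe nearest the 5′ end was seen on the low-fertile array alone at 43.2, against 16.2 on the high-fertile array, which sets it at least 1.52-fold lower on the high-fertile array. A probe towards the 3′ end was seen on the high-fertile array alone at 31.1, against 12.4 on the low-fertile array. That last probe shares 54 bases with another whose signals were 9.49 on the high-fertile array, against 28.1 on the low-fertile array. These near-identical probes gave differences of 1.66 and -1.24, but the second was well above background on neither array. The remaining probe, with 5.49 on the high-fertile array, against 6.06 on the low-fertile array, was also well above background on neither. The direction of PRDX6 is uncertain.

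PRDX2, a cytosolic peroxiredoxin abundant in red blood cells, gave the more even reading. Its signal was 81.5 on the high-fertile array and 142.5 on the low-fertile array, a difference of -0.48, and the 2 spots of this probe gave -0.43 and -0.52. A second PRDX2 probe was seen on the low-fertile array alone, with 16.0 on the high-fertile array, against 52.8 on the low-fertile array, at least 1.86-fold lower on the high-fertile array. A probe seen on the low-fertile array alone can only read lower on the high-fertile array, so the PRDX2 difference rests on the first probe. PRDX5, found in mitochondria and peroxisomes, had 63.1 on the high-fertile array, against 72.4 on the low-fertile array at 1 of 3 probes, a difference of 0.13. PRDX1 and PRDX4 had 1 probe each and SRXN1, which repairs overoxidised peroxiredoxins, had 2, and none of these was well above background on either array.

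PRDX3, the mitochondrial peroxiredoxin, was seen on the high-fertile array alone at 49.1, against 26.8 on the low-fertile array, at least 2.03-fold higher on the high-fertile array. The file places this probe on chromosome 8 and the other PRDX3 probe on chromosome 26. That other probe had 11.8 on the high-fertile array, against 8.78 on the low-fertile array, and was well above background on neither. The chromosome 8 probe shares a run of 35 bases with a probe filed under another transcript accession, which had 48.9 on the high-fertile array, against 25.9 on the low-fertile array. Which transcript these probes read was not tested, so the value is uncertain for PRDX3.

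Among glutathione peroxidases, GPX4 reduces peroxides inside membrane lipids and is a structural protein of the sperm midpiece. GPX4 had 75.01 on the high-fertile array, against 115.0 on the low-fertile array at its junction probe, a difference of -0.29, and its other probe was well above background on neither array. GPX4 stayed below 0 in the 10 settings in which it was measured, from -0.89 to -0.17, and did not pass the stricter filter on dim probes. With 1 measured probe, settings that pick the brightest probe or leave out patches or shared probes repeated its value by design. GPX1 had 91.6 on the high-fertile array, against 84.8 on the low-fertile array at the sense probe shown above, a difference of 0.44, or -0.16 with spike-in scaling. The opposite-strand probe, its exact reverse complement, had 17.9 on the high-fertile array, against 16.0 on the low-fertile array and was well above background on neither, so the GPX1 signal was read in the sense direction. The remaining GPX1 probe, nearer the 3′ end, was well above background on neither array.

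GPX3, the secreted plasma form, had differences of -0.70 and -0.30 at 2 of 4 probes, a mean of -0.50 ± 0.28 (SD over 2 probes). At the first of these the signals were 30.0 on the high-fertile array, against 61.2 on the low-fertile array, and at the other 27.4 on the high-fertile array, against 42.4 on the low-fertile array. The first lay in a patch of the array where at least 4 of its 8 neighbouring spots differed at least 2-fold the same way, and GPX3 was -0.30 without it. GPX5, a glutathione peroxidase secreted in the epididymis, had 32.2 on the high-fertile array, against 42.9 on the low-fertile array, a difference of -0.09. GPX6 and GPX8 were well above background on neither array.

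GPX7, an enzyme of the endoplasmic reticulum, was seen on the high-fertile array alone. It had 121 on the high-fertile array, against 30.3 on the low-fertile array at its only probe, at least 5.01-fold higher on the high-fertile array, the largest bound in the set. The low-fertile signal lay just under that array's lowest well-above-background signal. SOD1, described below, and PRDX3 also passed 2-fold as bounds. All 3 genes seen on the high-fertile array alone did so, against 7.20% of 1402 such genes on the array, and neither of the 2 genes seen on the low-fertile array alone did, against 16.6% of 1392. With spike-in scaling PRDX3 no longer passed 2-fold, and GSTA4 and GSTO2 did.

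**Figure D2:**
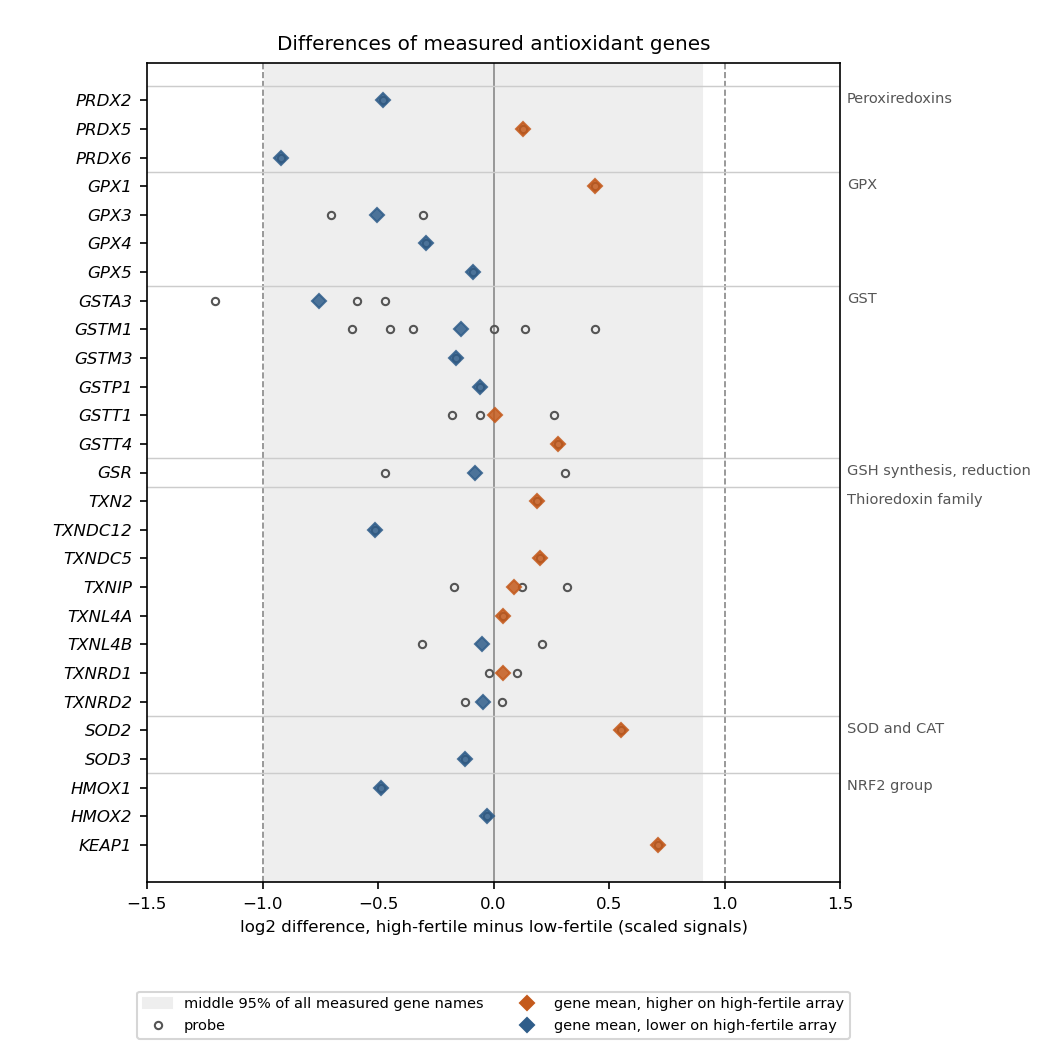
Log2 difference, high-fertile minus low-fertile (x axis), of the 27 measured antioxidant genes by role, with open circles for single probes and diamonds for the gene mean. All gene means lie between the dashed 2-fold lines, from -0.92 for PRDX6 to 0.71 for KEAP1, and the shaded band is the middle 95% of all measured genes, -0.99 to 0.90.

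Alpha-class glutathione transferases detoxify lipid peroxidation products and have 9 probes in the set, all on chromosome 23. Of these, 3 were measured on both arrays, all of them filed as GSTA3, 1 was seen on the low-fertile array alone, and 5 were well above background on neither. GSTA3 had a mean of -0.75 ± 0.39 (SD over 3 probes), and every setting kept it below 0, from -1.35 to -0.33. Its signals were 104.3 on the high-fertile array, against 197 on the low-fertile array at the probe nearest the 3′ end, a difference of -0.59. They were 33.0 on the high-fertile array, against 95.4 on the low-fertile array at the GSTA3 probe shown above, a difference of -1.20. At the probe filed as GSTA3 but carrying the accession of GSTA1, they were 30.3 on the high-fertile array, against 52.6 on the low-fertile array, a difference of -0.47. The 2 accessions thus both read lower on the high-fertile array, and members of this family are close in sequence. The high-fertile signals of 33.0 and 30.3 were less than 2 times that array's lowest well-above-background signal, 22.6. Under the stricter filter on dim probes GSTA3 rested on the -0.59 probe alone.

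GSTA4, which favours the lipid aldehyde 4-hydroxynonenal, was seen on the low-fertile array alone, at 22.6 on the high-fertile array, against 46.4 on the low-fertile array, at least 1.64-fold lower on the high-fertile array. GSTO2, an omega-class enzyme, had 16.8 on the high-fertile array, against 45.6 on the low-fertile array, at least 1.61-fold lower. GSTA2, GSTA5, GSTO1 and GSTT3 were well above background on neither array.

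The mu-class name GSTM1 covered several loci on chromosome 3. Its 6 measured of 9 probes averaged -0.14 ± 0.40 (SD over 6 probes), with signs both ways. Split by accession, 4 probes of LOC327709 averaged 0.03 ± 0.37 and 2 probes of LOC783879 averaged -0.48 ± 0.19 (SD over probes). GSTM3, a mu-class enzyme found in testis and sperm, had 86.0 on the high-fertile array, against 120.6 on the low-fertile array, a difference of -0.16.

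The other glutathione transferases lay near 0. GSTP1, the pi-class enzyme, which the reference table names LOC281806, had 309 on the high-fertile array, against 404 on the low-fertile array, a difference of -0.06. Its other probe had 21.2 on the high-fertile array, against 14.3 on the low-fertile array, and was well above background on neither. With no filter on dim probes GSTP1 was at 0.42. GSTT1 averaged 0.01 ± 0.23 (SD over 3 probes), and GSTT4 had 36.8 on the high-fertile array, against 38.0 on the low-fertile array, a difference of 0.28, or -0.32 with spike-in scaling.

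Of the genes that make or regenerate glutathione, only GSR, glutathione reductase, was measured. One GSR probe had 342 on the high-fertile array, against 345 on the low-fertile array, a difference of 0.31. The other, further towards the 3′ end, had 50.3 on the high-fertile array, against 87.5 on the low-fertile array, a difference of -0.47. The mean was -0.08 ± 0.55 (SD over 2 probes), so the probes disagreed in sign. GCLC and GCLM, the subunits of the enzyme for the rate-limiting step of glutathione synthesis, and GSS, glutathione synthetase, were well above background on neither array.

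In the thioredoxin family, 8 of 18 genes were measured and most lay close to 0. TXN2, mitochondrial thioredoxin, had 276 on the high-fertile array, against 305 on the low-fertile array, a difference of 0.19. Its other probe was seen on the high-fertile array alone at 26.6, against 7.51 on the low-fertile array, at least 1.097-fold higher, and with no filter on dim probes TXN2 was at 1.17. Cytosolic TXN was well above background on neither array. TXNRD1, the cytosolic thioredoxin reductase, averaged 0.04 ± 0.09 (SD over 2 probes). At the probe shown above it had 25.7 on the high-fertile array, against 32.6 on the low-fertile array, and at its 3′ probe 183 on the high-fertile array, against 214 on the low-fertile array. TXNRD2, the mitochondrial form, averaged -0.04 ± 0.11 (SD over 2 probes). In the spread over probes these 2 reductases were the most even genes of the set with at least 2 measured probes.

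TXNRD3, known from mouse as a testis-rich reductase, had signals of 9.74 on the high-fertile array, against 7.06 on the low-fertile array at the probe shown above and was well above background on neither array. That probe and the TXNRD1 probe share 33 of 51 aligned bases, and 17 of the 24 capital bases. TXNDC3, which the reference table names NME8, and TXNDC8, both testis thioredoxins, were also on neither array well above background, and so were TXNDC9, TXNDC11, TXNDC15, TXNDC16, TXNDC17 and TXNL1.

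TXNIP, which binds and inhibits thioredoxin, averaged 0.09 ± 0.25 (SD over 3 probes) and -0.02 without a probe in a patch. TXNDC12, a thioredoxin-like protein of the endoplasmic reticulum, had 44.3 on the high-fertile array, against 79.4 on the low-fertile array at 1 of 2 probes, a difference of -0.51. It stayed below 0 in the 10 settings in which it was measured, from -1.11 to -0.22. Picking the brightest probe or leaving out patches or shared probes repeated the value by design. TXNDC5, a disulfide isomerase of the same compartment, had 60.9 on the high-fertile array, against 66.5 on the low-fertile array, a difference of 0.20. TXNL4A and TXNL4B, splicing proteins with a thioredoxin fold, were at 0.04 and -0.05, and a pair of TXNL4B probes that share 57 bases gave 0.21 and -0.31.

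SOD1, the cytosolic copper-zinc superoxide dismutase, was seen on the high-fertile array alone at 2 of 4 probes. Its probe nearest the 3′ end had 88.3 on the high-fertile array, against 28.4 on the low-fertile array, at least 3.65-fold higher on the high-fertile array. A second probe had 33.7 on the high-fertile array, against 18.9 on the low-fertile array, at least 1.39-fold higher. No SOD1 probe was measured on both arrays. Probes seen on the high-fertile array alone are those dim on the other, so the second adds no separate support for the direction. Of the other SOD1 probes, 1 had 24.99 on the high-fertile array, against 19.1 on the low-fertile array and was well above background on neither. The last had 5.21 on the high-fertile array, against 7.87 on the low-fertile array, although it lies between the 2 seen probes. A probe filed under a separate transcript shares 40 bases with it and was also well above background on neither array.

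SOD2, the mitochondrial manganese enzyme, had 40.6 on the high-fertile array, against 34.7 on the low-fertile array at 1 of 2 probes, a difference of 0.55, or -0.05 with spike-in scaling. SOD3, the extracellular form, had 33.5 on the high-fertile array, against 45.7 on the low-fertile array, a difference of -0.12. CAT, catalase, was well above background at none of its 4 probes on either array, with signals between 4.83 and 7.31 on the high-fertile array and between 6.15 and 18.7 on the low-fertile array.

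KEAP1 holds the transcription factor NFE2L2 (NRF2) for degradation. KEAP1 had 612 on the high-fertile array, against 469 on the low-fertile array, a difference of 0.71, and it alone of the 27 stayed above 0 in every setting, from 0.11 with spike-in scaling to 0.81. This rested on 1 of 4 probes, since the other 3, including one nearer the 3′ end at 10.05 on the high-fertile array, against 8.65 on the low-fertile array, were well above background on neither array. Settings that pick the brightest probe or leave out patches or shared probes therefore repeated the KEAP1 value by design. NFE2L2 itself at 4 probes and its target NQO1 at 2 were well above background on neither array. HMOX1, the inducible haem oxygenase and another NRF2 target, had 24.2 on the high-fertile array, against 42.5 on the low-fertile array at its only probe, a difference of -0.49. The high-fertile value lay close to the limit of that array, 22.6. The difference was -0.09 with normexp background correction, whose added offset of 50 draws differences of dim probes towards 0. HMOX2, the constitutive form, had 149 on the high-fertile array, against 191 on the low-fertile array, a difference of -0.03.

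**Figure D3:**
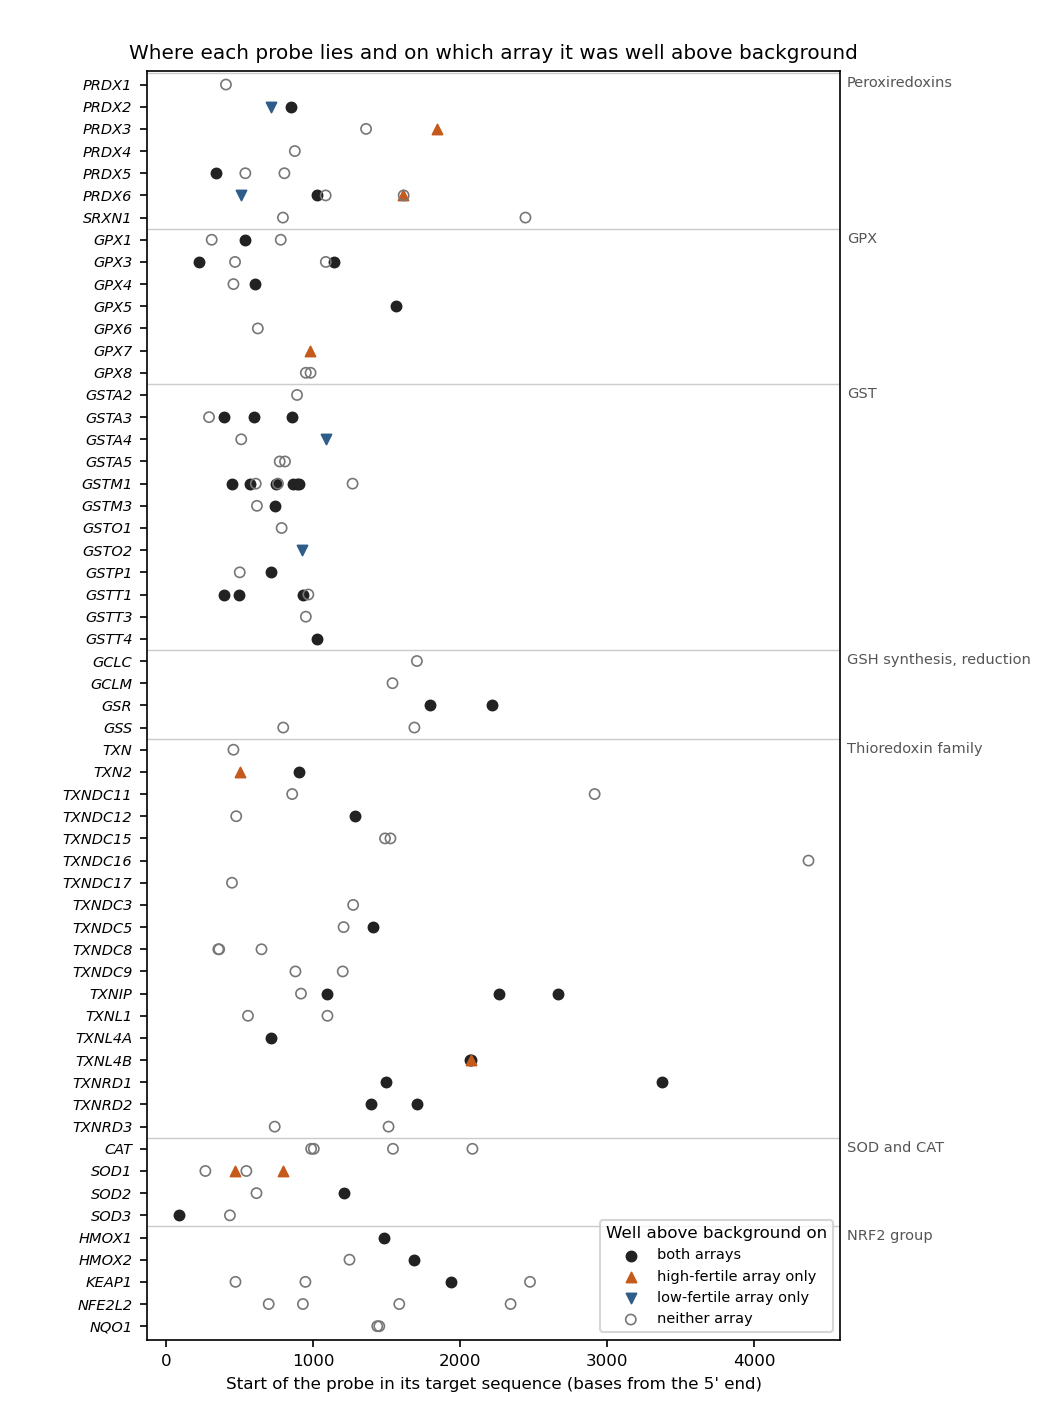
Start of each of the 126 probes in its target sequence (x axis, bases from the 5′ end) for the 57 antioxidant genes by role. Filled circles mark probes well above background on both arrays (43), triangles on the high-fertile array only (7) or the low-fertile array only (4), and open circles on neither array (72).

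Detection differed with where a probe lay. For 34 transcript accessions of the set with probes at least 100 bases apart, the probe nearest the 3′ end was measured in 18 (52.9%) and the one nearest the 5′ end in 11 (32.4%). Over all 9462 such accessions the shares were 30.1% and 21.7%. Probes whose genomic interval exceeds the probe by at least 20 bases span an exon junction and cannot be read from unspliced or genomic sequence as a whole. Of 20 such probes of the set 6 (30.0%) were measured, in GPX4, GSTT1, PRDX5, SOD3, TXNRD1 and TXNRD2, against 35.2% of its 105 single-interval probes. On the whole array the shares were 17.8% and 28.9%.

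Genes of the same pathways outside the rule had a similar median: 45 of 110 such genes on the array were measured, with a median of -0.02, of which 0 passed 2-fold upwards, beside 1.87% of all measured genes, and 2 passed it downwards, beside 2.44%. The lowest were SELS, a selenoprotein of the endoplasmic reticulum, with 31.4 on the high-fertile array, against 120 on the low-fertile array (-1.61), GSTCD with 26.2 on the high-fertile array, against 67.9 on the low-fertile array (-1.05), and RBX1, the ring subunit of the ligase that KEAP1 serves, at -0.80. SELS was measured at 1 of 2 probes, GSTCD at 1 of 3 and RBX1 at 1 of 4. The high-fertile signals of SELS and GSTCD lay near that array's lowest well-above-background signal, 22.6. That of RBX1, 37.3, was less than 2 times this limit. The highest were TMX4, a membrane thioredoxin, with 2572 on the high-fertile array, against 1829 on the low-fertile array (0.82), GGT5, which cleaves glutathione (0.78), and ABCC1, which exports its conjugates (0.64). TMX4 was measured at 1 of 2 probes, GGT5 at 1 of 3 and ABCC1 at its only probe. Of 17 genes of glutathione supply and turnover 5 were measured and ran from 0.04 to 0.78. Of 8 glutaredoxins and methionine sulfoxide reductases 5 were measured and ran from -0.28 to -0.03, with GLRX at -0.18 ± 0.56 (SD over 3 probes). The other lists had genes on both sides of 0. Spike-in scaling lowers every difference by 0.60, which exceeds the lowest supply values, so these signs depend on the scaling.

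The labelled material was checked against markers. Of 26 sperm and late spermatid markers 11 were measured, 7 above 0 and 4 below with a median of 0.14, and the summed scaled signal (in multiples of the 75th percentile) was 7.02 on the high-fertile array, against 6.78 on the low-fertile array. PRM1, a protamine, at -1.10 was the 1 marker at least 2-fold lower, TNP2, a transition protein, at 1.22 and ACTL7B, an actin-like protein of spermatids, at 1.19 were the 2 at least 2-fold higher, and AKAP4, CRISP2, IZUMO1, LDHC, PRM2 and SMCP were not measured. Leukocyte markers were also read, 11 of 18, with a summed scaled signal of 104 on the high-fertile array, against 139 on the low-fertile array, but 5 were above 0 and 6 below, with a median of -0.06. Of 14 epithelial and stromal markers 9 were measured, with sums of 49.3 on the high-fertile array, against 37.9 on the low-fertile array, with 5 above 0, 4 below and a median of 0.08. Among the epithelial ones KRT8, KRT14, KRT19 and CLDN4 were measured, and EPCAM, CDH1, KRT5 and KRT18 were not. Testis somatic cells gave 5 of 12 markers, with sums of 9.62 on the high-fertile array, against 10.3 on the low-fertile array, and epididymis and accessory glands 2 of 10, with 0.53 on the high-fertile array, against 0.73 on the low-fertile array. Erythroid cells gave 3 of 7, with 2.73 on the high-fertile array, against 2.76 on the low-fertile array. The part of these cell types in the antioxidant readings was not tested.

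**Figure D4:**
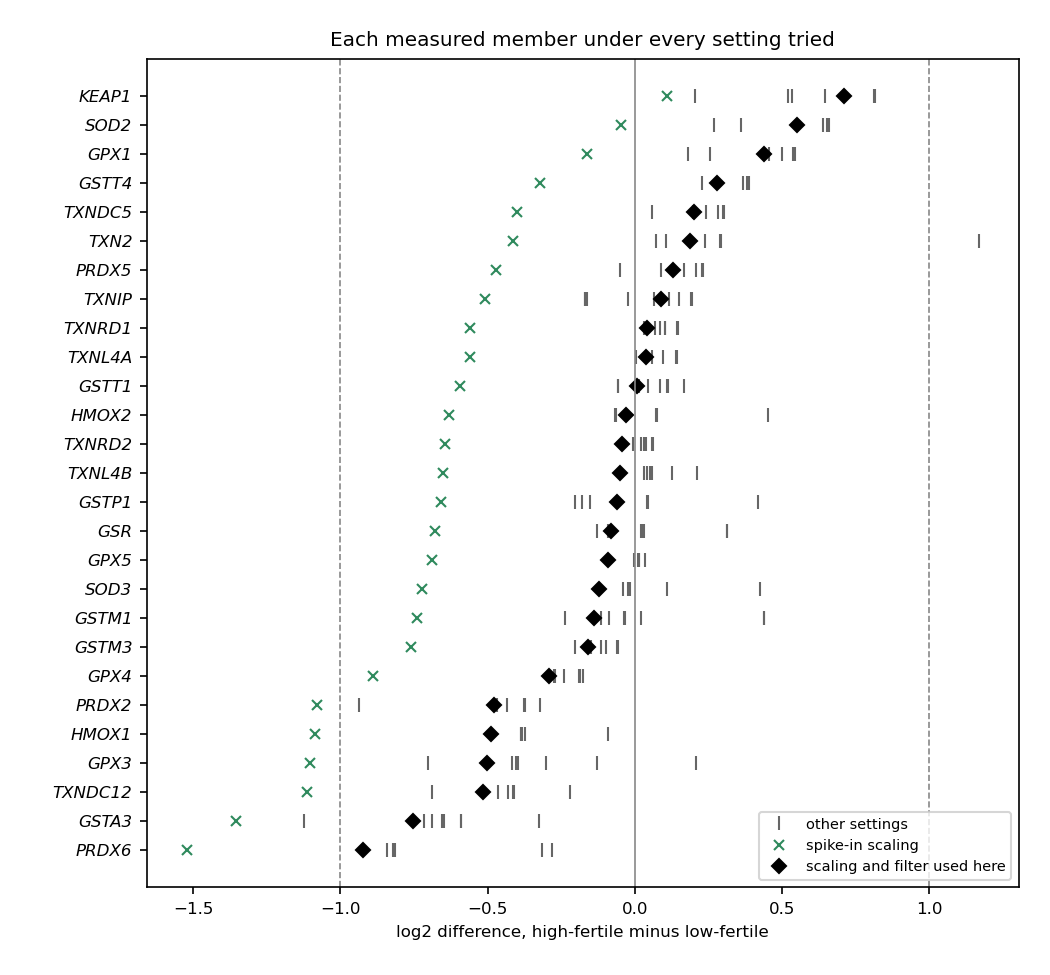
Log2 difference, high-fertile minus low-fertile (x axis), of the 27 measured genes under every scaling, background and filter setting tried, with diamonds for the values reported here, crosses for spike-in scaling and ticks for the others. Spike-in scaling moves every gene by the same amount, and 8 of the 27 genes keep their sign in each setting in which they were measured, KEAP1 above 0 and 7 below. Of these 8, only KEAP1 and GSTA3 passed the stricter filter on dim probes, GSTA3 at its brightest probe alone. Only GSTA3 had several measured probes, and for the rest the brightest-probe, patch and shared-base settings repeat the reported value by design.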

How the data were processed

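Spermatozoal total RNA was hybridised to 1 array per group, and the fertility characteristic in the labels gave the groups. In the deposited scanner tables each spot has a linear intensity. Agilent Feature Extraction 11.5.1.1 produced these intensities, per the file headers, which place probes on build HGSC Btau_3.1 and show that the processed signal is background-subtracted and spatially detrended. The sources used here describe no scaling across arrays. The deposited series matrix has log2 values, each the log2 processed signal shifted by 1 constant for its array (high-fertile -5.12, low-fertile -5.55), to within 0.01 for 98.6% of probes. Its column medians were -1.43 for high-fertile and -1.37 for low-fertile, its direction is that of expression, and no gene centring was seen.

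Control and outlier-flagged spots were left out and spots of 1 probe averaged. Since under 50% of probes (27.6%) passed the background call on both arrays, the 75th percentile of those probes set the scale of an array. A gene's difference is the mean over its measured probes, counted at an absolute log2 value of 1. For a probe dim on 1 array, the bright value was set against the higher of that array's lowest well-above-background signal and the probe's own, written as at least N-fold. The number of arrays limits the precision. In the self-test 200 of 200 simulated 4-fold genes were recovered among 11687, with 9 others called. Its noise was a chosen value and not that of these arrays, and its effects lay well past the threshold. It therefore checks the calculation and gives neither the recovery of smaller differences nor the rate of false calls here.

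The RefSeq table of assembly ARS-UCD2.0 held the accession of 115 of the 126 probes, 14 of them under another symbol than the file's. Names follow the file otherwise, and that table was used for names only. Members and lists were chosen with earlier results of these data known. The rule for named genes took 1-array bounds of at least 2-fold, the 2 largest differences per direction and role, a standing list of main enzymes, and the 3 largest per direction among 6 lists of other pathway genes. Other members were named to account for all, and the probes printed, shared or overlapping were picked after their values were seen. Marker genes came from 6 lists. Python 3.11.15, numpy 2.4.6, pandas 2.3.3, scipy 1.17.1, R 4.3.3 and limma 3.58.1 were used. The sequence of 1 further probe is not reported here.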

Additional observations from a re-analysis of the deposited data

How the results depend on the processing

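With 1 array per group no value has a replicate error, and 44.2% of the set's measured probes lay near the detection limit of an array. The count of genes at least 2-fold higher stayed at 0 under normexp background correction, quantile normalization, spike-in scaling, loess, the series matrix, scaling on the percentile of all probes, a stricter filter, the brightest probe, and leaving out patches or probes sharing 20 bases. It was 4 of 57 with no filter on dim probes, beside 2.51% of all 32429 gene names. A 4-fold threshold had to give 0, since no gene passed 2-fold. Spike-in scaling lowers every difference, so it could not raise the count of higher genes above 0. No measured probe of the set shares 20 bases with a probe of another gene name, so leaving such probes out repeated the values by design. The count at least 2-fold lower was 6 with spike-in scaling (GPX3, GSTA3, HMOX1, PRDX2, PRDX6 and TXNDC12), beside 15.4% of all measured genes. It was 3 with no filter, beside 5.57% of all gene names, and 0 under the rest. With no filter all 57 genes enter, 25 of them well above background on neither array. The median of the measured genes was -0.65 with spike-in scaling, where the median of all genes was -0.60, so relative to all genes it stayed at -0.05. It ran from -0.11 to 0.05 under the other settings. Over all 11687 measured genes the calls were 218 higher and 285 lower, but 33 and 1798 with spike-in scaling. They were 298 and 204 with the percentile over all probes and 300 and 202 in the series matrix. These last 2 settings move the median of all genes by 0.10 and are nearly the same scaling. Normexp, whose added offset of 50 draws differences towards 0, gave 72 and 48. With no filter the calls were 814 and 1807 of 32429 genes, and with the stricter filter 126 and 46 of 4261. The genes on 1 array with a bound of at least 2-fold were GPX7, PRDX3 and SOD1, GPX7 and SOD1 without probes sharing 20 bases, and GPX7, SOD1, GSTA4 and GSTO2 with spike-in scaling. At least 1 setting turned the sign of 19 of the 27 differences, and GPX3 was at 0.21 with no filter. The cause of these shifts was not tested. Splitting names by accession, chosen after seeing the data, gave 30 measured names and a median of -0.05. No paired analysis was possible because each group has 1 array.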

Other observations

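Some probes outside the naming rule read transcripts of the same families under their accession alone. GPX2, the glutathione peroxidase of gut epithelium, is filed this way and had 64.4 on the high-fertile array, against 71.8 on the low-fertile array, a difference of 0.17. A further accession, the one that the reference table names GSTP1, was seen on the high-fertile array alone, at 36.4 on the high-fertile array, against 38.4 on the low-fertile array. The low-fertile signal exceeded the lowest well-above-background signal of that array, 30.3, but was not called well above background.

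Of 9 pairs of same-strand probes that overlap by at least 20 bases within a gene of the set, 3 gave differences of opposite sign and 7 had the same calls on both arrays. Those 3 were in NQO1, PRDX6 and TXNL4B, and only in TXNL4B were both probes measured. Measured probes of the set had a median GC content of 45%, against 41.7% for those on neither array, and over all probes the medians were 45% and 43.3%.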
